A study of Homo sapiens with 4 samples.

Results

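The MYC network is a set of transcription factors built around MYC, and 10 of its genes (MYC, MYCN, MYCL, MAX, MXD1, MXD4, MXI1, MNT, MLX and MGA), of 19970 protein-coding genes on chromosomes 1 to 22 and X, were described by the ZNF217 peaks at their promoters and in their gene bodies. The rule that names them uses no measured value. A promoter was taken as 1 kb on each side of any annotated transcription start site (TSS), and a gene body peak as any other peak inside the gene. For MYC, all peaks from 500 kb upstream to 2 Mb downstream of its 5′ end were described as well. ZNF217, a zinc finger transcription factor that the study examined in acute myeloid leukemia (AML), was mapped by CUT&Tag, in which a transposase tethered to an antibody cuts and tags the DNA around the antibody's target. The MV4-11-ZNF217 and U937_ZNF217 libraries came from untreated human AML lines, MV4-11 with a KMT2A fusion and U937 with a PICALM fusion. Both lines are single established cultures with 1 library each, which leaves no replicates to set a difference against, and the matching IgG libraries (MV4-11-IgG and U937_IgG) are not analysed here.

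MYC, MYCN and MYCL bind DNA as dimers with MAX, at the E-box CACGTG and its variants, and drive genes of growth and ribosome production. MXD1, MXD4, MXI1, MNT and MGA also dimerise with MAX, occupy the same sites and mostly repress, through SIN3 and histone deacetylases or, for MGA, through a Polycomb complex, while MLX is the MAX-like partner of a parallel branch that responds to nutrients. In blood cells, MYC is controlled in part by a cluster of enhancers far downstream, inside the long non-coding gene CCDC26 and beyond PVT1, the non-coding gene next to MYC.

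The MV4-11 list held 36356 peaks on chromosomes 1 to 22 and X and the U937 list 21737 (ratio 1.67), and the median widths were 622 and 689 bp. Since the lists hold hg38 positions alone, with neither height nor count, a peak could be described only by its place, its width and whether it overlapped (by at least 1 bp, here called shared) a peak of the other line. Among 8 myeloid marker genes, 7 had a promoter peak in MV4-11 and 4 in U937. SPI1 and CSF1R had one in both lines, CEBPA, MPO and CD14 in MV4-11 only, and LYZ in neither. Of 8 lymphoid markers, 4 were occupied in MV4-11 and 2 in U937 (PAX5 and CD79A in both). Of 8 erythroid markers, 2 were occupied in MV4-11 and 1 in U937 (EPOR in both). Over all protein-coding genes, 59.0% had a promoter peak in MV4-11 and 50.5% in U937, and no cell type is read from these marker counts. Occupancy of a promoter is not expression, which these lists do not measure.

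ZNF217 occupied the promoters of 9 of the 10 network genes in MV4-11 (90%, 95% exact interval 55.5 to 99.7%), where 59.0% of all protein-coding genes were occupied. In U937, 6 of the 10 were occupied (60%, 26.2 to 87.8%), with 50.5% of all genes. The 6 genes occupied in U937 (MYC, MAX, MXD1, MXI1, MNT and MLX) were also occupied in MV4-11, so that both lines held a peak at 6 promoters, against 47.4% of all genes. MYCL, MXD4 and MGA were occupied in MV4-11 only, 3 of 10 against 11.6% of all genes, and the interval of that share, 6.67 to 65.2%, includes the value of all genes. No network gene was occupied in U937 only, as were 3.10% of all genes, and MYCN was occupied in neither line. With 10 genes these shares have wide intervals, which cover counting error only.

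Several network genes held more than 1 promoter peak. In MV4-11 these were 6 of 10, MYC, MXD4, MXI1, MNT, MLX and MGA (60%, 26.2 to 87.8%), where 16.4% of all genes had 2 or more. In U937 they were 4 of 10, MYC, MXD1, MXI1 and MNT (40%, 12.2 to 73.8%), where 9.60% did. A gene with more annotated TSSs has more promoter windows, and the genes named here had from 4 (MXD4) to 37 (MXI1). The shares were not adjusted for that. Promoter peaks at the network genes were also wide. At the median, the 22 promoter peaks of the network in MV4-11 spanned 1689 bp, against 874 bp for all 14637 promoter peaks there. The 12 of U937 spanned 1262.5 bp, against 864 bp for all 10647.

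**Figure D1:**
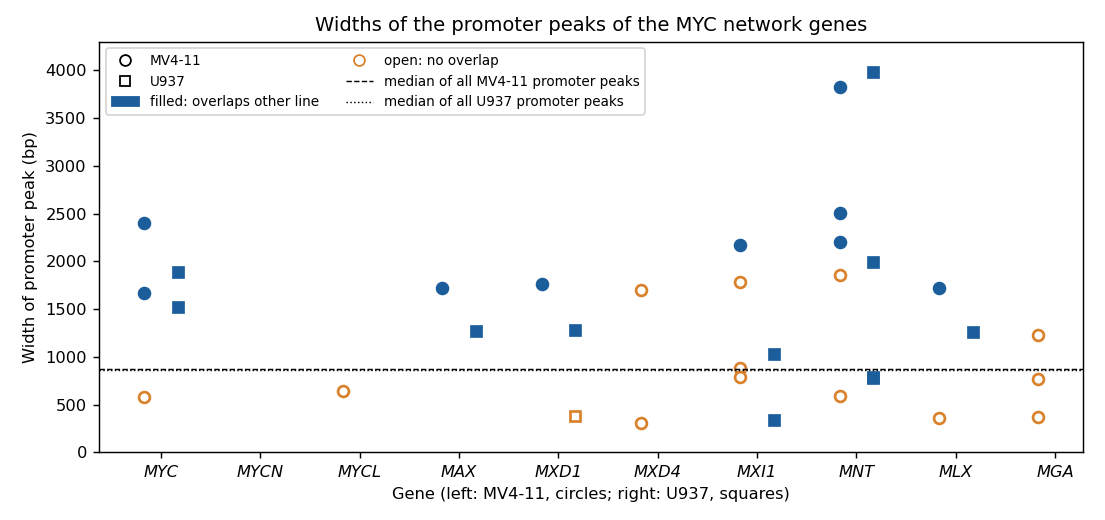
Width of each promoter peak in bp (vertical axis) at the 10 network genes (horizontal axis), with MV4-11 as circles on the left and U937 as squares on the right. Filled points overlap a peak of the other line, open points do not, and the lines mark the medians of all promoter peaks (874 bp in MV4-11 and 864 bp in U937). MYCN has no point, MYCL, MXD4 and MGA have points in MV4-11 only, and the widest peaks, 3823 and 3983 bp, are at MNT.

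Width and sharing went together at these genes. In MV4-11, the 9 shared promoter peaks were 1673 to 3823 bp wide and the 13 unshared ones 312 to 1852 bp. Of the 13 peaks of at least 1200 bp, an edge not fixed beforehand, 9 were shared (69.2%, 38.6 to 90.9%), against 86.9% of all MV4-11 promoter peaks of that width. Of the 9 narrower ones, 312 to 881 bp wide, 0 were shared (upper limit 33.6%), against 51.3% of all below 1200 bp. That share is not matched in width, as sharing rose from 20.5% below 400 bp to 46.3% at 400 to 800 bp and 74.3% at 800 to 1200 bp. The MNT peak of 594 bp, among the 9, lay 19 bp from a U937 peak. In U937, 11 of the 12 promoter peaks were shared (91.7%, 61.5 to 99.8%), against 87.0% of all. Peaks of the same gene are not independent, so the intervals are narrower than they should be. Over the 11 pairs of overlapping promoter peaks, the overlap was 49.95% of the pair's joint length at the median, and it was 62.9% over all 9685 pairs.

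MYC itself (chr8:127735434-127742951, plus strand, 3 exons in the canonical transcript and 14 annotated TSSs) carried a pair of wide promoter peaks in both lines. The first was 1673 bp in MV4-11 (chr8:127734877-127736550) and 1520 bp in U937 (chr8:127735022-127736542), and in both it covered the 5′ end of the gene, the canonical TSS 797 bp further in and 8 TSSs in all. The second was 2400 bp in MV4-11 (chr8:127736851-127739251) and 1884 bp in U937 (chr8:127737060-127738944), and it ran from intron 1 across exon 2 in MV4-11, where it covered 6 TSSs, and into exon 2 in U937, where it covered 4. Each U937 peak lay wholly inside its MV4-11 counterpart. The gap between the pair, 301 bp in MV4-11 and 518 bp in U937, lay over the end of exon 1 and the start of intron 1.

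MV4-11 had 3 further peaks at MYC that U937 did not. One of 575 bp lay upstream, 557 bp from the nearest U937 peak, and the others, of 354 and 856 bp, lay in exon 3. In all, 5 peaks covered 5.86 kb at MYC in MV4-11, a length reached by 4.07% of protein-coding genes there, and 2 peaks covered 3.40 kb in U937, a length reached by 4.29%. CASC11, a non-coding gene on the other strand, overlaps MYC. All 3 MV4-11 promoter peaks and the second U937 peak lay within 1 kb of one of its start sites too, so they cannot be assigned to MYC alone.

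**Figure D2:**
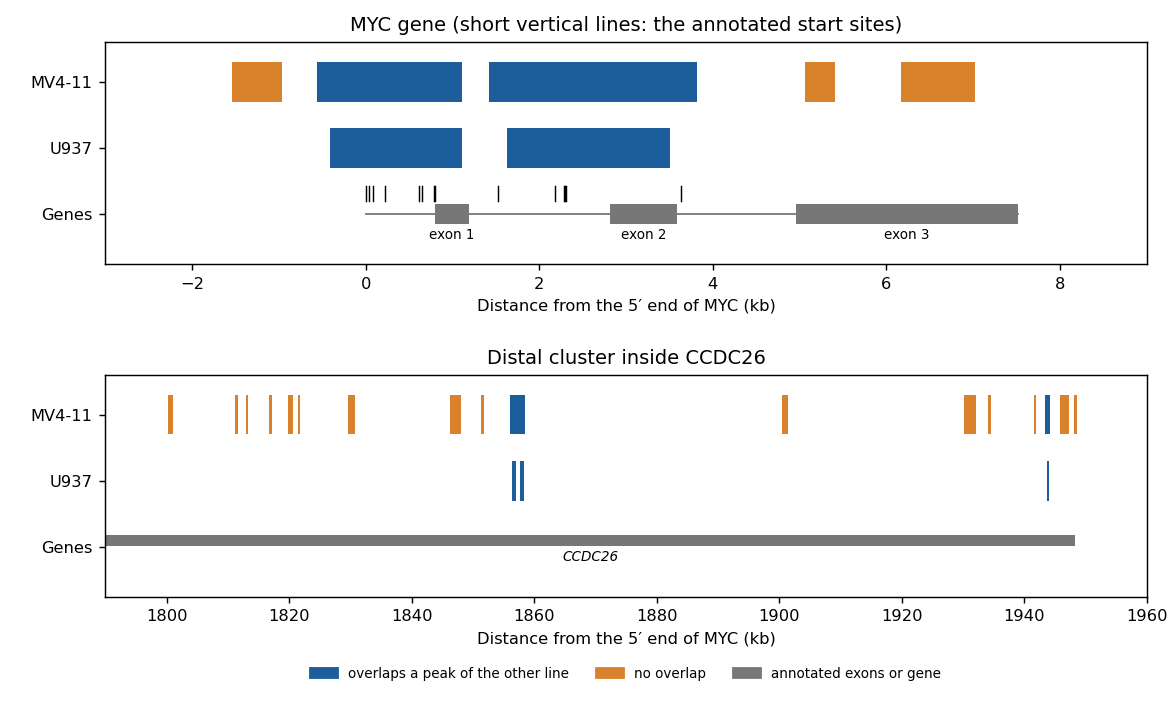
Peaks at the MYC gene (top) and in the distal cluster (bottom) by distance from the 5′ end of MYC in kb, with MV4-11 above U937 and drawn to scale. Blue peaks overlap a peak of the other line and orange ones do not. At MYC the 2 U937 peaks lie inside the 2 wide MV4-11 peaks, and in the cluster all 3 U937 peaks lie inside MV4-11 peaks. The 3 cluster peaks nearest to MYC, 1568 to 1687 kb away, lie outside the lower plot.

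Over the whole window of 2.5 Mb, MV4-11 had 33 peaks and U937 had 9. Of these, 7 were shared in each line, 21.2% of the MV4-11 peaks (8.98 to 38.9%) and 77.8% of those of U937 (40.0 to 97.2%). When the overlap had to reach 50% of both peaks, 2 were shared in each line (6.06% in MV4-11 and 22.2% in U937). The peaks covered 31364 bp in MV4-11 and 7495 bp in U937. Neither number was high for a window of this size. Around 19158 other protein-coding genes, the same window held a median of 42 MV4-11 peaks (quartiles 18 and 90) and 28 U937 peaks (quartiles 12 and 53), and 57.8% of genes had at least as many in MV4-11 and 83.7% in U937.

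The peaks fell into a few places. Upstream of MYC the window held 1 peak in MV4-11, of 539 bp inside CASC8 and 308 kb from MYC, and 0 in U937. Between MYC and PVT1, MV4-11 had a peak of 869 bp, 24.5 kb from the 5′ end of MYC, and U937 had 0. PVT1 held 5 peaks in MV4-11 and 3 in U937. Its promoter, 59.1 kb from MYC, was occupied in both lines, by a peak of 1391 bp in MV4-11 and one of 601 bp inside it in U937. A peak of 2004 bp at an internal PVT1 TSS, 182 kb from MYC, was present in MV4-11 only, as was one of 352 bp at 155 kb, and one of 529 bp at 197 kb was present in U937 only. Near 314 kb, at the microRNA gene MIR1207, 2 MV4-11 peaks of 1449 and 777 bp met 1 U937 peak of 920 bp, with only 8 bp of the narrower one overlapped. Between PVT1 and 1.5 Mb each line had 1 peak, 371 bp at 516 kb in MV4-11 and 385 bp at 1025 kb in U937.

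**Figure D3:**
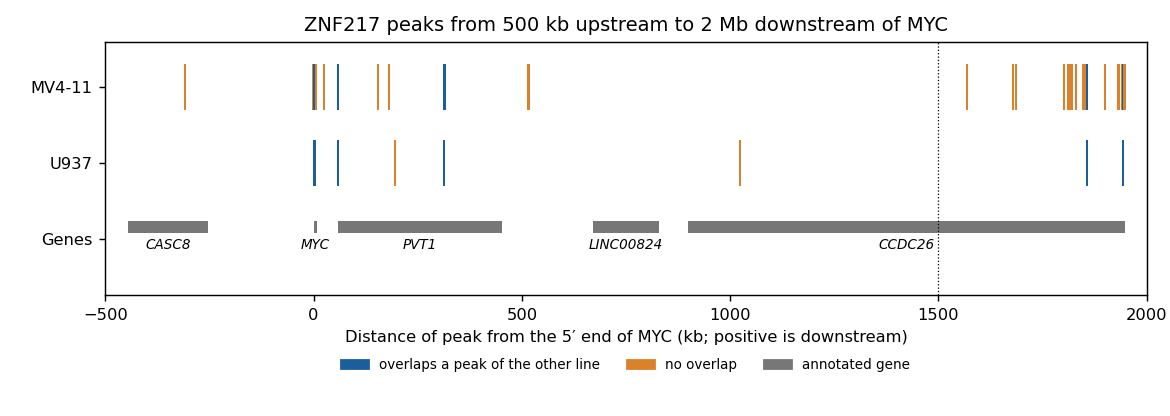
Peaks in the window around MYC by distance from its 5′ end in kb (horizontal axis), with MV4-11 above U937. Bars are drawn at least 5 kb wide so that they can be seen, blue ones overlap a peak of the other line, and the dotted line marks 1.5 Mb. To the right of it lie 20 of the 33 MV4-11 peaks and 3 of the 9 U937 peaks.

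The lines differed most in number beyond 1.5 Mb, where the blood enhancer cluster lies. MV4-11 had 20 peaks there, covering 17.8 kb, and U937 had 3, covering 1.66 kb, and all of them overlapped CCDC26. The ratio of 6.67 stood beside 1.96 for all peaks away from protein-coding promoters and 1.75 for all of chromosome 8 (1598 and 914 peaks). Among peaks of at least 400 bp the numbers were 16 and 2, and among peaks of at least 1 kb they were 5 and 0. With the widest 21737 MV4-11 peaks alone, as many as U937 has in all, they were 12 and 3. All 3 U937 peaks were shared, and 2 of the 20 MV4-11 peaks were (10%, 1.23 to 31.7%). Whether the lines carry different numbers of copies of this region, and how deeply each library was sequenced, was not measured.

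One shared peak was the widest of the cluster, 2543 bp in MV4-11 (chr8:129591431-129593974, 1857 kb from MYC), which held 2 U937 peaks of 734 and 573 bp. The other shared peak was 926 bp in MV4-11, 1944 kb from MYC, and held a U937 peak of 349 bp. The other 4 MV4-11 peaks of over 1 kb had no counterpart. They were 1904 bp wide at 1847 kb, 2020 bp at 1931 kb, 1462 bp at 1947 kb and 1102 bp at 1830 kb. Over all peaks away from protein-coding promoters, 42.4% of those of 800 to 1200 bp, 58.3% of those of 1200 to 1600 bp, 65.4% of those of 1600 to 2000 bp and 78.8% of wider ones were shared. The last peak, 504 bp, lay over the 5′ end of CCDC26, whose transcripts run back towards MYC.

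When MV4-11 peaks less than 12.5 kb apart were joined, a distance chosen after the peaks had been seen, most of the cluster fell into 3 regions. The first held 7 peaks in 30.5 kb, from 1800 to 1831 kb, and 4.70% of the 17016 joined regions of the genome held as many peaks. The second held 3 peaks in 12.3 kb and included the shared peak of 2543 bp, with as many peaks in 20.2% of regions, and the third held 6 peaks in 18.5 kb and ended at the CCDC26 promoter, with as many peaks in 6.47% of regions. The first region held no U937 peak, and the nearest U937 peak was 25.6 kb beyond its last member. In U937 no joined region of the window held more than 2 peaks.

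Beyond 1.5 Mb of 19158 other genes, the median was 5 peaks in MV4-11 (quartiles 1 and 14) and 3 in U937 (quartiles 0 and 9), and 18.6% of genes had at least 20 in MV4-11. The difference between the lines, 17 peaks at MYC, was reached by 8.54% of genes, where the median was 1. Of the 3560 other genes with at least 20 MV4-11 peaks at this distance, with medians of 32 in MV4-11 and 18 in U937, 11 had no more than 3 U937 peaks. Neighbouring genes share such windows, so these genes are fewer places than their number.

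**Figure D4:**
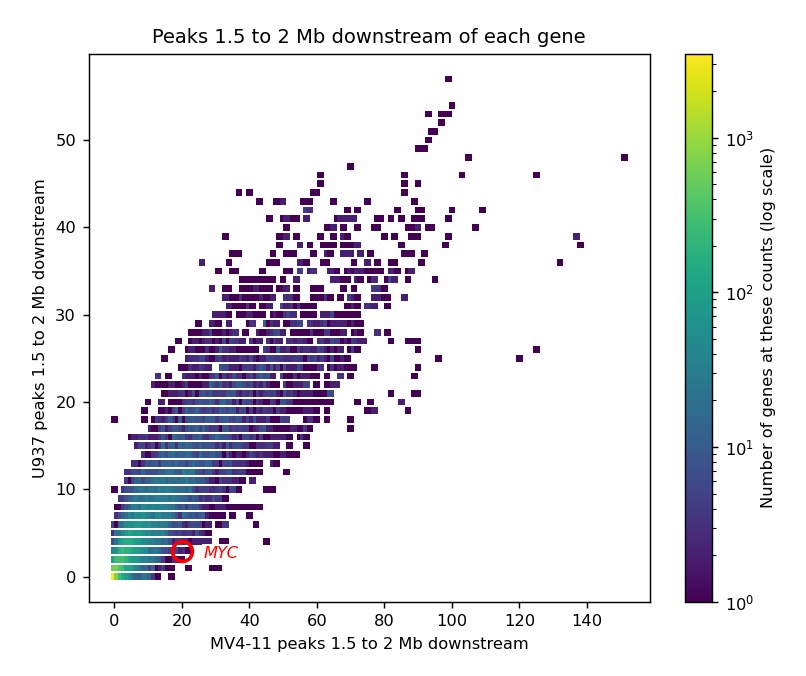
Number of MV4-11 peaks (horizontal axis) and U937 peaks (vertical axis) from 1.5 to 2 Mb downstream of each protein-coding gene, with the color giving how many genes have each pair of counts on a log scale. MYC, circled, has 20 MV4-11 and 3 U937 peaks and lies near the lower edge of the cloud.

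The central 300 bp of the 20 MV4-11 peaks of the cluster had a median GC content of 46.5%, against 54.0% over all 21719 peaks away from promoters, and in U937 the medians were 53.7% for the 3 peaks and 54.8% over all. Over whole peaks, the GC content of the MV4-11 cluster ran from 43.2 to 55.8%, and U937 had 54.1 to 54.4%, so the 3 U937 values lay within the MV4-11 range. In MV4-11, the E-box CACGTG was in 0 of the 20 (upper limit 16.8%), against 7.01% of all, and GAGGAA, the core of sites for PU.1 (the product of SPI1), was in 11 (55.0%, 31.5 to 76.9%), against 32.8%. Both intervals include the value of all peaks. A match to such letters is a description of the sequence and does not show that a factor binds.

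The other MYC genes had little. MYCN, which is best known from neuroblastoma, had no peak at its promoter or in its body in either line. The nearest peak to its canonical TSS was 65.7 kb away in MV4-11 and 215 kb away in U937. MYCL, first found in lung cancer, had a single MV4-11 peak of 639 bp over all 3 of its TSSs, and the nearest U937 peak was 23.8 kb from it. Of the MV4-11 genes with an occupied promoter, 80.9% had a widest promoter peak at least as wide as that of MYCL.

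MAX, the common partner (chr14:65006174-65102695, minus strand), was occupied at its promoter in both lines, by a peak of 1723 bp in MV4-11 that covered 13 of its 14 TSSs and one of 1268 bp inside it in U937. Within the gene, MV4-11 had 6 more peaks, of 436, 377, 434, 843, 1089 and 719 bp, from 27.7 to 59.9 kb inside, and U937 had 1, of 394 bp at 58.1 kb, inside the MV4-11 peak of 1089 bp. All of these lay beyond the end of the canonical transcript, in sequence that other annotated transcripts of the gene span. The peaks of MAX covered 5.62 kb in MV4-11 and 1.66 kb in U937. As many bases were covered at 4.50% of protein-coding genes in MV4-11 and at 17.2% in U937. MAX thus had the largest number of MV4-11 peaks of the network genes, 7, in a gene annotated over 96.5 kb. Peak number and covered bases were not adjusted for gene length, and other genes that overlap MAX were not looked for.

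**Figure D5:**
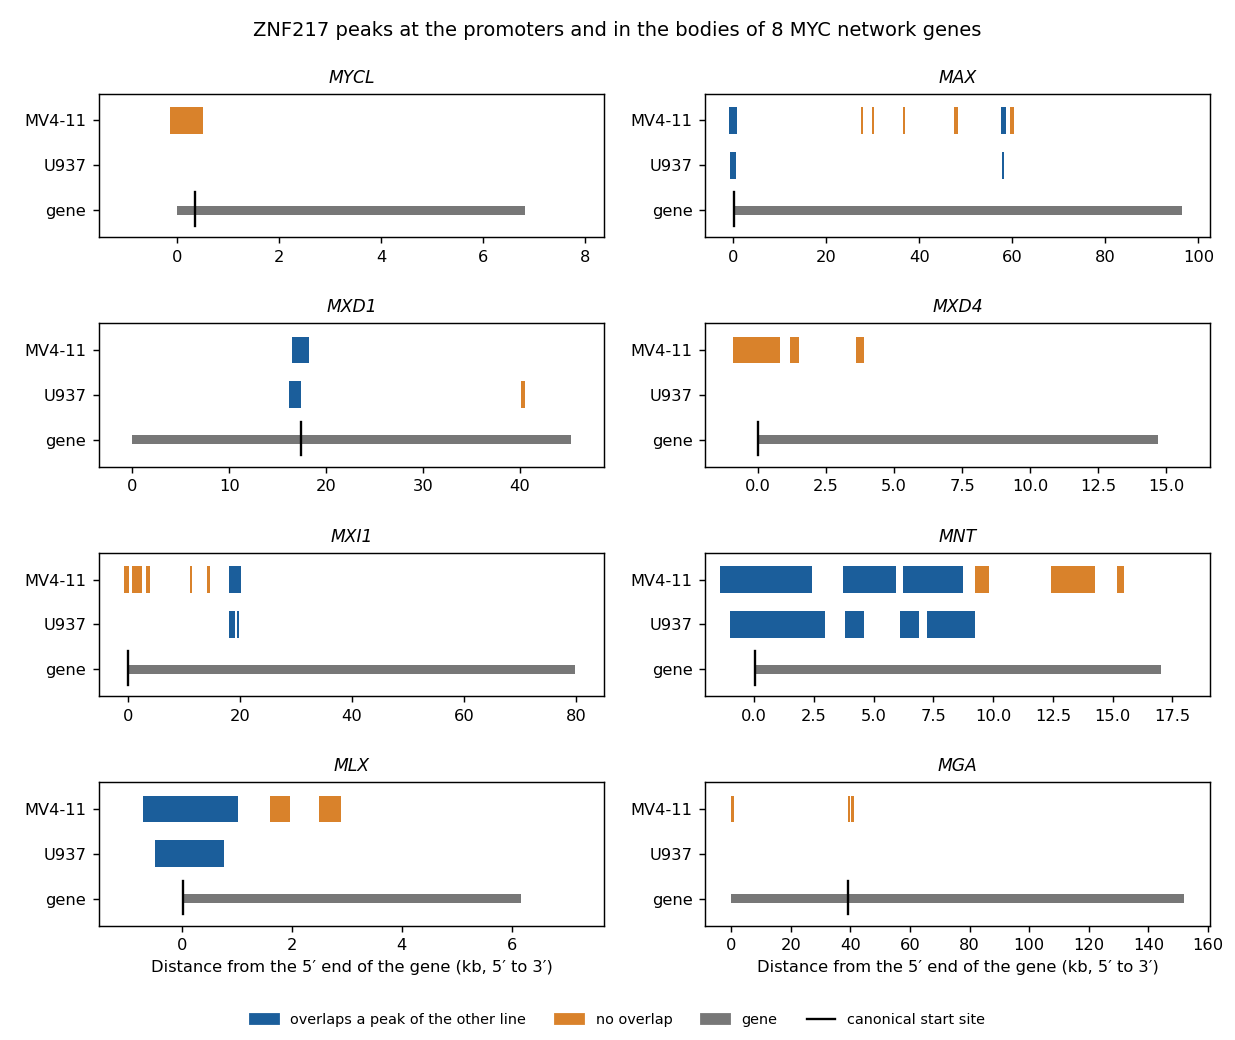
Peaks at 8 network genes by distance from the 5′ end of each gene in kb, with MV4-11 above U937 and the gene below, all read 5′ to 3′ on separate scales; the narrowest bars are widened to be seen. Blue peaks overlap a peak of the other line, orange ones do not, and the black line is the canonical start site. The 5′ peaks of MXI1, and all peaks of MYCL, MXD4 and MGA, have no U937 counterpart. MNT has peaks along most of its length in MV4-11 and in its 5′ part only in U937.

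The repressor MXD1, which is induced as myeloid cells mature, was occupied in both lines at its canonical TSS, 17.4 kb inside the 5′ end of the gene. The peak was 1767 bp in MV4-11 and 1280 bp in U937 and the overlap was 973 bp. The 5′ end of the gene held no peak in either line. U937 also had a peak of 380 bp over an annotated TSS in intron 5, the only one of its 13 peaks at the network genes without an MV4-11 counterpart.

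MXD4 was occupied in MV4-11 only. Its peaks were 1705 bp over the canonical TSS and, further in, 312 and 295 bp, and the nearest U937 peak was 15.8 kb from the last of them. Of all MV4-11 promoter peaks of 1600 to 2000 bp, 86.4% were shared (84.2 to 88.2%). MNT, a broadly expressed MAX-binding repressor (chr17:2384073-2401104, minus strand), was the most heavily covered network gene in both lines. In MV4-11 its promoter peaks were 3823, 2206, 2510, 594 and 1852 bp wide and 1 peak of 293 bp lay in exon 6, and in U937 the promoter peaks were 3983, 791, 782 and 1993 bp. They covered 11.3 kb in MV4-11 and 7.55 kb in U937, and only 0.711% of protein-coding genes in MV4-11 and 0.686% in U937 had as many bases covered. The first peak of each line overlapped by 3441 bp, and all 4 U937 peaks were shared, while the MV4-11 peaks of 594, 1852 and 293 bp towards the 3′ end were not. Of these, the peak of 594 bp lay only 19 bp from a U937 peak. MLX was occupied in both lines, by a peak of 1721 bp in MV4-11 with one of 1257 bp inside it in U937, and MV4-11 alone had peaks of 359 and 401 bp further in.

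These 3 genes, MXD4, MNT and MLX, had an E-box in the 300 bases around a start site (250 before and 50 after it, from RefSeq, GRCh38.p14), and they are shown because the E-box is the site that the network's own dimers bind. RefSeq promoters were matched for 9 of the 10 genes, all but MYC. Of those 9 genes 3 had CACGTG in a promoter (33.3%), as did 8.79% of 27195 genes (7.27% of 34961 promoters). Capitals mark CACGTG, which reads the same on both strands. All 300 bases lay under a peak in MV4-11 for each gene, and in U937 for MNT and MLX, while for MXD4 none did in U937.
MXD4 promoter, chr4:2262060-2262359, minus strand: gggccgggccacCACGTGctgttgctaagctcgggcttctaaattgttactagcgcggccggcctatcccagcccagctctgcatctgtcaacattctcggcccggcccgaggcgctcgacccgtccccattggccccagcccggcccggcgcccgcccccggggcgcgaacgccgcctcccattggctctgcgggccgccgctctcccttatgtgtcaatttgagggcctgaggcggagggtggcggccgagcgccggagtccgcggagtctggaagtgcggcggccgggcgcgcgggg
MNT promoter, chr17:2401011-2401310, minus strand: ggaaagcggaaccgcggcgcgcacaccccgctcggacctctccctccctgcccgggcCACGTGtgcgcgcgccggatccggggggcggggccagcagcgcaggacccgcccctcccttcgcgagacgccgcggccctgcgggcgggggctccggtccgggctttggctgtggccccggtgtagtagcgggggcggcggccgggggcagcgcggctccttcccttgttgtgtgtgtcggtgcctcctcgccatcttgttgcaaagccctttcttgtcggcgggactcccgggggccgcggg
MLX promoter, chr17:42566850-42567149, plus strand: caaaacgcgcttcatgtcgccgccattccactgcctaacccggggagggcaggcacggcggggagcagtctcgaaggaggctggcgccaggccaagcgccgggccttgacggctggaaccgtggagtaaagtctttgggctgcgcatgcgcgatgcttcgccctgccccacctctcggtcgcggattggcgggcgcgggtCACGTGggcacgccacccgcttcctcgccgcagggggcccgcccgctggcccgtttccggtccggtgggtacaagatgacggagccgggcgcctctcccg

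Counted from the start site, the E-box began at position -238 in MXD4, -193 in MNT and -50 in MLX. In the middle 300 bp of the promoter peaks of the network, CACGTG was in 4 of 22 in MV4-11 (18.2%, 5.19 to 40.3%), at MAX, MNT and 2 peaks of MGA, against 7.75% of all promoter peaks. In U937 it was in 1 of 12 (8.33%, 0.211 to 38.5%), at MAX, against 7.65%. The variant CACGCG, counted on both strands and at places that cannot overlap a CACGTG match, was in 9 of 22 in MV4-11 (40.9%, 20.7 to 63.6%), against 13.7%, and in 5 of 12 in U937 (41.7%, 15.2 to 72.3%), against 14.7%. The 9 peaks belonged to 5 genes, MYC, MXI1, MNT, MLX and MGA, and the 5 peaks to 4 of them, all but MGA. Both U937 peaks of MXI1, where this motif recurs in a repeat, were among the 5. In U937 the median GC content of the middle 300 bp was 69.3%, against 64.7% over all promoter peaks (64.7 against 64.0% in MV4-11). The shares were not adjusted for GC content. ACAGAA, a core of the site known for ZNF217, was in 7 of 22 in MV4-11 (31.8%, 13.9 to 54.9%), against 11.9%, and in 1 of 12 in U937 (8.33%), against 11.2%, and its variant GCAGAA was in 1 of 22 (4.55%) and 2 of 12 (16.7%), against 17.7 and 17.1%. Over whole peaks, ACAGAA was in 54.5% in MV4-11 (32.2 to 75.6%), against 36.2%, and CACGCG in 63.6% in MV4-11 (40.7 to 82.8%), against 33.3%, and in 66.7% in U937 (34.9 to 90.1%), against 35.2%, so that the intervals of ACAGAA in MV4-11 and of CACGCG in U937 include the value of all promoter peaks there. The promoter peaks of the network were wider at the median than all promoter peaks, 1689 against 874 bp in MV4-11 and 1262.5 against 864 bp in U937. A wider peak has more room for a match, and the whole-peak shares were not adjusted for width. These motifs were among 13 searched, and peaks of 1 gene are not independent.

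MXI1, a repressor close to MXD1 (chr10:110207605-110287365, plus strand), differed between its 2 groups of start sites. At its 5′ end MV4-11 had peaks of 881, 1780 and 794 bp, and 450 and 535 bp further into intron 1, and U937 had none, with the nearest 17.9 kb from the first. At the internal start sites, from 18.4 kb on, MV4-11 had a peak of 2167 bp over 31 of the 37 annotated TSSs of the gene, and inside it lay both U937 peaks, of 1030 and 338 bp. In all, 6.61 kb were covered in MV4-11, as at 3.04% of protein-coding genes, and 1.37 kb in U937, as at 23.3%. The promoters of the 5′ end and of the internal start (RefSeq, GRCh38.p14) are printed to show a place occupied in MV4-11 only and the place occupied in both lines. All 300 bases of each lay under a peak in MV4-11, and in U937 0 of the first and 300 of the second did. The first has 14 CpGs and 55.0% GC and the second 35 CpGs and 69.0% GC, where the median of all promoters is 14 CpGs and 58.7% GC. Another RefSeq promoter of the 5′ group (chr10:110209981-110210280) has 33 CpGs and 75.3% GC. Of its bases, 178 lay under an MV4-11 peak and 0 under a U937 peak. Over whole peaks, GC was 55.5, 57.9 and 55.9% in the MV4-11 peaks of 881, 1780 and 794 bp. It was 69.7% in the internal MV4-11 peak, and 70.6 and 74.0% in the U937 peaks inside it. Whether base composition bears on the difference between the lines was not tested. Capitals mark CACGCG, which 11.4% of all promoters hold on 1 strand or the other.
MXI1 5′ promoter, chr10:110207355-110207654, plus strand: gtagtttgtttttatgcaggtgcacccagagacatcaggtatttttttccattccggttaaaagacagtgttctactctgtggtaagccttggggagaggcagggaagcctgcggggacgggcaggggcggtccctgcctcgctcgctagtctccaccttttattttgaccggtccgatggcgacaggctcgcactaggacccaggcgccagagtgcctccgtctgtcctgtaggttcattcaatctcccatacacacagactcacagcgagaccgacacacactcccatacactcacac
MXI1 internal promoter, chr10:110225746-110226045, plus strand: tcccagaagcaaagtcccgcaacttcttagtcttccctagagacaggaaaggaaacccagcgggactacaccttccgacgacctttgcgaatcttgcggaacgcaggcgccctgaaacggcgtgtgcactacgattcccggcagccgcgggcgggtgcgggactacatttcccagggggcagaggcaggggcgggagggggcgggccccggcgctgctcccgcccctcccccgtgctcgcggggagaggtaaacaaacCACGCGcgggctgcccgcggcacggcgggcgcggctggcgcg

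The internal peak ran on into a G-rich repeat in which CACGCG or its reverse CGCGTG recurs. The MV4-11 peak held 29 of these on both strands together, more than any other of the 14637 MV4-11 promoter peaks, and the U937 peak of 1030 bp held 12, more than any other of 10647, where the median was 0 in both lines. CACGCG and CGCGTG can overlap, and such a pair was counted as 2. The second U937 peak, of 338 bp, held 6. Of the 31 TSSs under the MV4-11 peak, 26 are annotated past chr10:110226386, where the first annotated exon under that peak ends. The repeat lies past this point too. Short reads can be hard to place in repeats, and how they were placed here was not tested. The first stretch of it between annotated exons (203 bases of hg38, all of them under a peak in both lines, 7 matches in capitals) is shown so that the repeat can be read.
MXI1 repeat, chr10:110226387-110226589, plus strand: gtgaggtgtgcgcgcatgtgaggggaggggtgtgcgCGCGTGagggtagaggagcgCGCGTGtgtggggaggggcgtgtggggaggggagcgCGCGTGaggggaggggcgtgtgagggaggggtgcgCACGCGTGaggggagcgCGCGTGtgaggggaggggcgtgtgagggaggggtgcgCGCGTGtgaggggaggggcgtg

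MGA, a large protein that joins a MAX-binding domain to a second DNA-binding domain, was occupied in MV4-11 only. One peak of 1225 bp lay over the 5′ end, and peaks of 372 and 768 bp lay near the canonical TSS, 39271 bp inside the gene. The nearest U937 peaks were 60.8 to 101 kb away. Of all MV4-11 promoter peaks of 1200 to 1600 bp, 83.7% were shared (82.1 to 85.3%). The 5′ peak of MGA held 7 matches to CACGCG, a number reached by 19 of the 14637 MV4-11 promoter peaks.

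Peaks within gene bodies were few and mostly private to MV4-11. The network genes had 13 of them in MV4-11 (median 436 bp), and 1 was shared (7.69%, 0.195 to 36.0%), at MAX, where 25.4% of all MV4-11 peaks away from promoters were shared, with a median of 519 bp. U937 had 1, the MAX peak. Promoter and body peaks together were 35 in MV4-11 (28.6% shared) and 13 in U937 (92.3% shared), a pattern to be read beside 40.4% and 68.6% over all peaks.

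The 3 further members of the wider network were MXD3, a relative of MXD1, and MLXIP and MLXIPL, the partners of MLX that sense sugars. MXD3 was occupied in both lines, by 5 peaks in MV4-11 and 4 in U937. All 4 of those of U937 were shared. The widest, 2635 bp in MV4-11 and 2688 bp in U937, lay beyond the end of the canonical transcript, in sequence that other annotated transcripts of MXD3 span. Start sites of other genes there were not looked for, so these peaks are not assigned to MXD3 alone. MLXIP had a promoter peak of 1921 bp and 7 body peaks in MV4-11 and none in U937. MLXIPL had promoter peaks of 1442 and 889 bp and 3 body peaks in MV4-11, and in U937 it had 1 body peak, of 1287 bp, in exon 17. MLXIP and MLXIPL thus had promoter peaks in MV4-11 only, while MLX had one in both lines.

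Genes that work with the network were occupied at nearly all promoters in both lines. Of 12 genes of MYC cofactors, 12 had a promoter peak in MV4-11 and 11 in U937. TRRAP, a scaffold of histone acetyltransferase complexes, had one in MV4-11 only, of 1403 bp, while KAT2A and KAT5, the acetyltransferases, had peaks in both lines. Of 8 corepressor genes used by MXD and MNT proteins, 8 were occupied in MV4-11 and 7 in U937. SIN3B was occupied in MV4-11 only, by 2 peaks of which the wider had 926 bp, and its relative SIN3A in both lines, the widest being 4639 bp in MV4-11 and, in U937, 1429 bp. HDAC1, a histone deacetylase gene, was occupied in both as well. Of 9 genes of the MGA Polycomb complex, the same 8 were occupied in both lines, among them E2F6 and TFDP1. RING1 was the exception in both. All 10 genes of MYC turnover, among them the ubiquitin ligase gene FBXW7 and the deubiquitinase gene USP28, were occupied in both lines, as were all 12 classical MYC targets, among them ODC1 and CAD, enzymes of polyamine and pyrimidine synthesis. Beside these shares stand 59.0% of all protein-coding genes in MV4-11 and 50.5% in U937, and nothing particular to the MYC network is read from these counts.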

How the data were processed

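ZNF217 CUT&Tag peak lists of MV4-11 and U937 were used, grouped by sample title, with 1 library per line. Per the submitters' processing notes and the study's methods, the authors aligned reads to hg38 with Bowtie2 2.4.4 and called peaks with MACS3 3.0. Use of the IgG control, duplicate removal and blacklist filtering are not given in the sources used here. The deposited lists hold positions only (chromosome, start and end), a unit other than signal or count. Depth is unknown, and whether starts count from 0 or 1 was not stated, an uncertainty of 1 bp. Sequence names and lengths fit the reference, and genes came from GENCODE 44.

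Peaks were overlapped with promoters, gene bodies and the other line (Python 3.11.15, NumPy 2.4.6, SciPy 1.17.1, pysam 0.24.0, Matplotlib 3.10.9), after the overlap functions had been tested on simulated data. A peak counted as a promoter peak if it touched the window of 1 kb on each side of a TSS. Peaks of the 1.5 to 2 Mb interval were assigned by their midpoint. Shares carry exact (Clopper-Pearson) 95% intervals, except that the shares of all promoter peaks by width, given at MXD4 and MGA, carry Wilson intervals. No test between lines was made. Motifs were looked for in the central 300 bp, on both strands.

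The members and gene lists were chosen with earlier results of these data known. Named were all 10 members, 3 other network genes, annotated genes of the MYC window that held a peak, and in other lists every gene without a promoter peak in a line and at most 2 occupied in both, in list order. The other lymphoid and erythroid markers are given by number only, and some are not reported here. Genes of the closing section were named after their values were seen. Alternatives were promoters of 500 bp or 3 kb or at the 5′ end alone, peaks of at least 400 bp, the widest 21737 MV4-11 peaks, merging of peaks less than 500 bp apart, sharing by 50% reciprocal overlap or within 500 bp, and motifs in whole peaks.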

Additional observations from a re-analysis of the deposited data

How the results depend on the processing

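Of 68 recomputed values, 61 stayed within 1.5 times the reported count or inside the interval of the reported share. The counts of occupied members did not move beyond that, but with the 5′ end of each gene alone MXD1 was lost from MV4-11 (8 occupied) and MXD1 and MXI1 from U937 (4 occupied). With the widest 21737 MV4-11 peaks, as many as in U937, the MV4-11 peaks from 1.5 to 2 Mb downstream of MYC were 12, against 3 in U937. Under a reciprocal overlap of 50%, 6.06% of MV4-11 and 22.2% of U937 peaks of the MYC window were shared, 2 in each line, and 53.8% of the U937 peaks of the members. Among peaks of at least 400 bp, 100% of the U937 peaks of the members were shared. In whole MV4-11 promoter peaks of the members CACGTG was in 40.9% and GAGGAA in 72.7%, where 22.8 and 60.6% of all promoter peaks held them. The member peaks were wider at the median, 1689 against 874 bp, and these shares were not adjusted for width.

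No paired analysis was possible because each line has 1 library and the labels carry no replicate numbers. The deposited lists hold no counts or scores, so depth, peak height and a stricter threshold were not examined, and a peak missing from 1 list is not shown to be absent from the cells.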

Other observations

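The 11 other genes with at least 20 MV4-11 peaks and at most 3 U937 peaks from 1.5 to 2 Mb downstream are ASAP3, HAO2, HSD3B2, IRX2, DDX50, DDX21, RIPK3, TMEM266, CSE1L, TSPAN7 and CASK, on 7 chromosomes. HAO2 and HSD3B2 are neighbours on chromosome 1 and share most of that interval, with 22 and 20 MV4-11 peaks and 3 U937 peaks each, and DDX50 and DDX21 are neighbours on chromosome 10. On chromosome X, TSPAN7 had 31 MV4-11 peaks and 1 U937 peak and CASK had 29 and 1. IRX2 had the largest MV4-11 count of the 11, with 35 peaks, against 2 in U937. The genes were picked by the counts themselves, so these values are a description only.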
